A study of Mus musculus with 4 samples.

Results

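The genes of the major histocompatibility complex (MHC) and of antigen presentation were examined in whole kidneys of a mouse model of membranous nephropathy (MN), in which immune complexes build up under the podocytes of the glomerulus. Members were every gene on the array whose name in the scanner files began with H2-, the prefix of the mouse MHC, together with Cd74, B2m, Tap1, Tap2, Tapbp, Psmb8, Psmb9, Psmb10, Ciita, Ctss and Nlrc5. This gave 51 genes (40 named H2- and 11 others) measured by 69 probes, out of 34607 genes and 55681 probes. They comprised 28 class I genes, 13 class II genes, 8 genes of class I loading and regulation, and 2 genes, H2-Ke2 and H2-Ke6, that lie in the region but encode no MHC chain. The animals were female BALB/C mice, 6 weeks old at the start, and every animal of both groups was first immunized with 0.2 mg of cationic bovine serum albumin in complete Freund's adjuvant. Beginning 2 weeks later, the MN group was injected with the same albumin into a vein (13 mg/kg per injection, 3 injections each week over 6 weeks), and the control group received vehicle, which the labels call saline in one place and PBS in another. The controls had therefore also met the antigen and the adjuvant. Each group had 2 samples, 1 array each, and the labels do not say that the arrays came from separate animals, so p-values measure only the spread between these samples.

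MHC class I molecules consist of a heavy chain and beta-2 microglobulin, and display peptides cut by the proteasome and pumped into the endoplasmic reticulum by the transporter TAP to CD8 T cells; nearly all nucleated cells carry them. MHC class II molecules are heterodimers of an alpha and a beta chain that display peptides from internalized protein to CD4 T cells, and are made mainly by dendritic cells, macrophages and B cells, and by some epithelial cells under interferon gamma. In the kidney, class II transcripts come largely from the network of interstitial dendritic cells and macrophages. In such whole-organ RNA, fewer cells of a type and less RNA per cell cannot be told apart.

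Levels are given as log2 of the processed signal relative to the 75th percentile of the same array, and differences as MN minus control on this scale. The MN and control arrays with the same number shared a slide (slide 1 for number 1, slide 2 for number 2). The share of non-control spots well above background was 64.0% and 63.1% on the MN arrays, against 65.9% and 79.5% on the control arrays, and no spot was saturated. All 10 kidney markers, among them Umod of the thick ascending limb and Aqp2 of the collecting duct, were well above background on all 4 arrays. Of the 51 members, 42 passed the filter for dim probes (both arrays of MN, or both of control, well above background), and 38 were well above background on all 4 arrays. The others passed through 1 group only, so their differences also reflect the filter.

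No member changed at the threshold. The limma fit over 25293 genes placed 5 (0.0198%) higher in MN at an adjusted p under 0.05 and 0 lower, and 0 of the 42 members were among them. The smallest adjusted p of a member was 0.547, for H2-Q4. At an unadjusted p under 0.05, 1 member was higher in MN (3.54% of all genes tested) and 0 were lower (3.49%). With the slide as a block, 0 members passed the adjusted threshold in limma (smallest adjusted p 0.189, again H2-Q4). In that fit 3 members were higher at an unadjusted p under 0.05, namely H2-Q4, H2-DMb1 and Ciita (6.29% of all genes). Lower at this p were 3, namely H2-Oa, H2-Ob and Tap1 (9.05% of all genes). The H2-Ob probe passed the filter only through control, where it was brighter, and a second H2-Ob probe had a difference of 1.12. The ± values below are standard errors of the main fit, which leaves out the slide and so includes the spread between slides. Over the members they ran from 0.13 to 0.78 with a median of 0.17. For H2-K1, as an example, the standard error was 0.25 in the main fit and 0.096 with the slide as a block. With 4 arrays, differences as small as the medians below were not detectable gene by gene.

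Most class II genes lay slightly higher in MN. Of 12 measured class II genes, 10 had a positive difference (38.6% of all genes tested did), and the median was 0.22, against a median of -0.05 over all genes tested. The 10 include H2-Eb2, which passed the filter only through MN. Both MN arrays lay above both control arrays for 7 of the 12 (58.3%), against 13.2% of all genes. Both MN arrays lay below both control arrays for 1 of the 12, H2-Oa (8.33%), against 19.9% of all genes. The class II median was 0.21 on slide 1 and 0.22 on slide 2. H2-Ab1, the beta chain of the class II molecule I-A, had levels of 5.50 and 5.43 on the MN arrays, against 5.27 and 5.14 on the control arrays. Its groups did not overlap, and the difference was 0.26 ± 0.14 (SE, limma adjusted p = 0.903). H2-Eb1, the beta chain of I-E, stood at 5.26 and 5.33 in MN, against 5.20 and 5.07 in control, a difference of 0.16 ± 0.14. H2-Aa, the alpha chain of I-A, had -1.23 and -0.98 in MN kidneys, against -1.89 and -0.89 in control kidneys. These groups overlapped, because the control array of slide 2 was the highest of the 4, and the difference was 0.28 ± 0.39, or -0.22 without control array 1.

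The alpha chain gene of I-E, named H2-Ea-ps because it is a pseudogene in the reference strain C57BL/6, was well above background on all 4 arrays of these BALB/C kidneys. Its levels were -0.92 and -1.20 in MN, against -0.86 and -1.33 in control, with the MN values inside the control range. H2-Eb2, a second beta chain gene, had -4.89 and -4.34 in MN, against -5.97 and -4.60 in control, where the array of slide 1 was not well above background. Its difference of 0.68 ± 0.54 was 0.03 with normexp, a model of the local background used in place of the scanner software's correction, and -0.01 without control array 1.

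**Figure D1:**
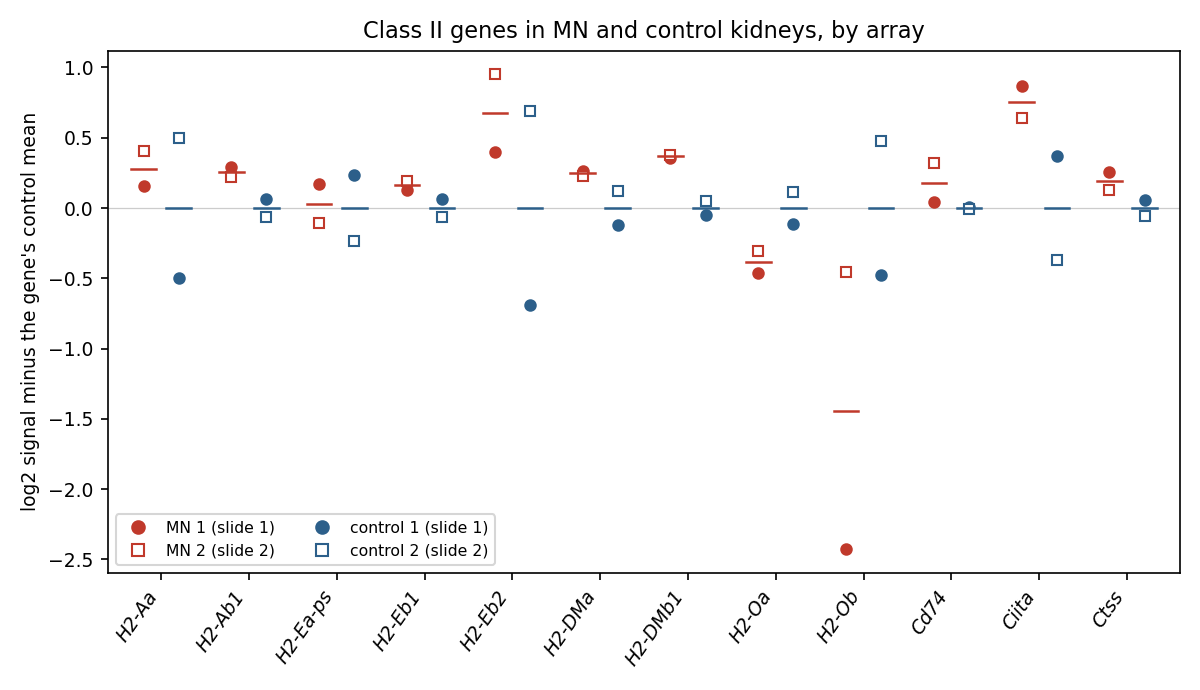
Log2 signal of each of the 12 measured class II genes on each array, minus the mean of the 2 control arrays; MN arrays stand left of control arrays, filled circles are slide 1, open squares are slide 2, and bars are group means. In 7 genes both MN points lie above both control points, and H2-Ob spreads most, with MN array 1 far below the rest.

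The promoters of class II genes carry a module of short boxes, of which the X box binds the RFX complex and the Y box binds NF-Y, and on which the coactivator CIITA assembles. RefSeq promoter windows (build GRCm38.p6, 250 bases before to 50 after each start, from the reference strain) were matched for 9 class II genes. The Y box core CTGATTGG, searched on both strands, was found in 4 of the 9, against 4.1% of all 32851 windows. An exact match to the X box core was found in 1 of the 9, H2-DMb1, against 0.0609% of windows. Both searches allowed no mismatch, so they do not show that the other windows lack these boxes. The H2-Eb1 and H2-Eb2 windows below each hold, before the Y box, a stretch that differs from the X box core at 1 base. The matched windows are shown because these genes share the module, with the box in capitals; negative numbers give the distance of its first base from the start.
H2-Aa, Y box at -51, chr17:34287851-34287914, minus strand: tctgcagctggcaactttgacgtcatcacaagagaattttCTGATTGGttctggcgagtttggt
H2-Eb1, Y box at -62, chr17:34305765-34305828, plus strand: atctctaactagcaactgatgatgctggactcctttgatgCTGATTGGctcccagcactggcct
H2-Eb2, Y box at -103, chr17:34325532-34325595, plus strand: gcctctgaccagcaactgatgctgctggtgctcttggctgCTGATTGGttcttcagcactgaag
H2-Oa, Y box at -46, chr17:34092293-34092356, plus strand: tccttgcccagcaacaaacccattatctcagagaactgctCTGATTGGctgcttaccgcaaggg
H2-DMb1, X box at -98, chr17:34153068-34153147, plus strand: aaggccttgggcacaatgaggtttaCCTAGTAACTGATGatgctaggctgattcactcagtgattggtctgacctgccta
The 4 genes with the Y box core had differences of both signs: H2-Aa, H2-Eb1 and H2-Eb2 had differences of 0.28, 0.16 and 0.68, and H2-Oa one of -0.38.

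Peptide exchange on class II molecules is catalysed by H2-DM, a heterodimer of H2-DMa and a DMb chain, and restrained by H2-DO, a heterodimer of H2-Oa and H2-Ob found mainly in B cells and some dendritic cells. The DM chains lay higher in MN. H2-DMb1 had levels of 1.89 and 1.91 on the MN arrays, against 1.48 and 1.58 on the control arrays. The groups did not overlap, and the difference was 0.37 ± 0.14 (unadjusted p = 0.054, limma adjusted p = 0.725), with 0.41 on slide 1 and 0.33 on slide 2. H2-DMa had 0.13 and 0.09 in MN, against -0.26 and -0.02 in control, a difference of 0.25 ± 0.16. H2-DMb2 did not exceed background clearly on any MN array. H2-Oa, in contrast, had -3.86 and -3.70 in MN, against -3.51 and -3.28 in control, so that both MN arrays were below both control arrays. Its difference was -0.38 ± 0.16 (unadjusted p = 0.079, limma adjusted p = 0.796), with -0.35 on slide 1 and -0.42 on slide 2.

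H2-Ob was measured by 3 probes that disagreed, and it was the only member whose tested probes had both signs. The brightest probe, which represents the gene, had -5.70 and -3.73 in MN, against -3.75 and -2.80 in control, with MN array 1 not well above background. Its difference was -1.44 ± 0.78, and -0.61 with normexp. A second tested probe had -4.45 and -4.35 in MN, against -5.42 and -5.61 in control, where array 1 was not well above background; its difference was 1.12. The third probe was not well above background on any array. The probe sequences are shown because they target different stretches of the gene, at mm9 positions on the plus strand of chromosome 17 per the file headers; for the other two probes only the first 30 bases are given.
H2-Ob, probe A_66_P130916, chr17:34380481-34380849: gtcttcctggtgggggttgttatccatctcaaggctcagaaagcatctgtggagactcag
H2-Ob, probe A_55_P2082929, chr17:34382790-34382849: gtcttgaatggtctcaacatttgttctaca
H2-Ob, probe A_55_P2057931, chr17:34377309-34377368: ttgccttcaacatgagtgtagtgttcagaa
The first is 60 bases long but spans 369 bases of the genome, as a probe across a splice junction does. No direction for H2-Ob follows from these values.

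**Figure D2:**
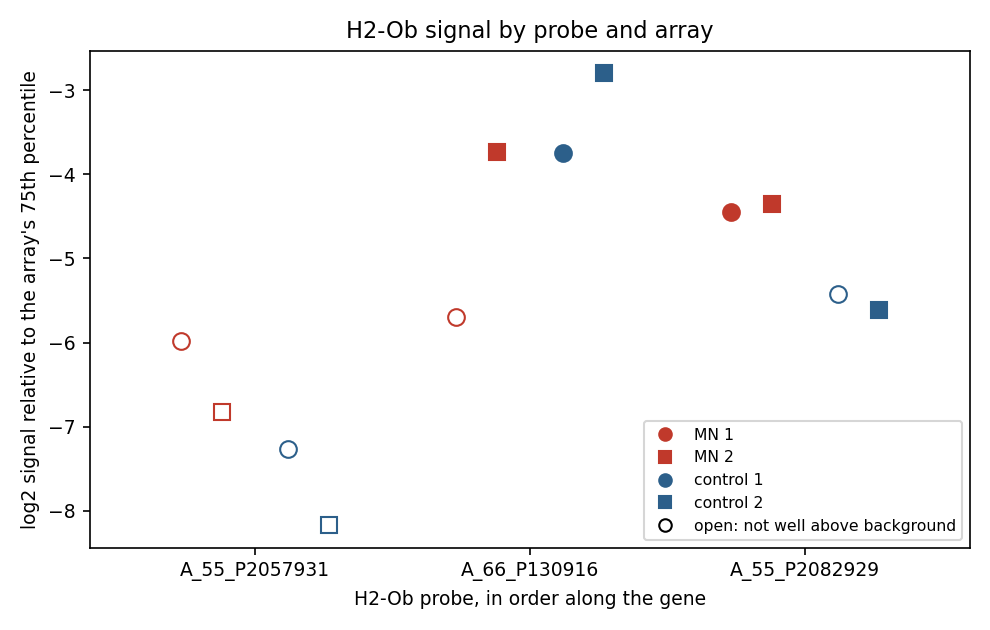
Log2 signal relative to the 75th percentile of the array for the 3 H2-Ob probes, in order along the gene, with MN arrays left of control arrays; open symbols were not well above background. The middle probe is lower in MN within each slide, the right one is higher on both MN arrays, and the left one is open on all 4 arrays.

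Cd74, the invariant chain that occupies the groove of new class II molecules, had 4.97 and 5.24 in MN, against 4.93 and 4.92 in control. The groups did not overlap, and the difference was 0.18 ± 0.16. Ctss, cathepsin S, which trims the invariant chain, had 1.78 and 1.65 in MN, against 1.58 and 1.47 in control, a difference of 0.19 ± 0.14. Ciita, the master coactivator of class II transcription, had -2.95 and -3.18 in MN, against -3.45 and -4.19 in control. Its difference was the highest of the class II genes, at 0.75 ± 0.30 (unadjusted p = 0.069, limma adjusted p = 0.775), and it was 0.33 with normexp and between 0.38 and 1.12 with 1 array left out.

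The single Ciita probe shared 20 or more bases in a row with 9 array probes of other genes, of which 3 had the stretch on the same strand. Of those 3 probes, 2 passed the filter for dim probes, with differences of 0.83 for the Tenm1 probe and 0.64 for the Cbln2 probe. The signal at this probe can therefore not be assigned to Ciita from the array. Without Ciita, the class II list had 6 of 11 genes with both MN arrays above both control arrays and a median of 0.19. The 2 probes of H2-Ab1, in contrast, gave 0.26 and 0.31. They overlap by 51 bases and differ there at 1 base, T51C (position from the 5′ end of the first probe), in capitals below.
H2-Ab1, probe A_55_P1962747, chr17:34406296-34406355 (bases 31 to 60 of the probe): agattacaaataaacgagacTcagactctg
H2-Ab1, probe A_55_P2146560, chr17:34406305-34406363 (bases 22 to 51 of the probe): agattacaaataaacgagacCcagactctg
Probe positions and promoters are those of the reference strain, and how well they match BALB/C alleles was not tested.

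Class I genes had smaller differences. Of 20 measured class I genes, 13 had a positive difference (38.6% of all genes), and the median was 0.06 (0.08 on each slide). Both MN arrays lay above both control arrays for 6 of the 20 (30%, against 13.2% of all genes), and below them for 1, H2-M10.3 (5%, against 19.9%). H2-K1, a classical heavy chain, had 5.18 and 4.76 in MN, against 5.07 and 4.64 in control. Here the slides differed more than the groups, and the difference was 0.11 ± 0.25, with 0.10 on slide 1 and 0.12 on slide 2. This probe was printed 10 times per array, and the SD over the spots of an array was 0.036 to 0.083. H2-D1, the other classical heavy chain, had 4.92 and 4.99 in MN, against 4.79 and 4.68 in control, a difference of 0.21 ± 0.14. Its close relative H2-K2 stood at 5.17 and 5.18 in MN, against 5.03 and 4.81 in control, a difference of 0.26 ± 0.15. Further probes gave 0.07 and 0.37 for H2-K1 and 0.22 for H2-K2. Class I probes are not specific to 1 gene in every case. The H2-Q8 probe shared 54 bases with an array probe outside the members, whose difference was 0.06. The H2-Q2 probe shared 21 bases with another such probe. An H2-K1 probe shared 29 bases with the H2-T23 probe, and an H2-K2 probe shared 28 bases with the H2-Q7 probe, so signal may be split among relatives. That H2-K1 probe, with a difference of 0.37, is shown because of this overlap.
H2-K1, probe A_55_P2049647, chr17:34133984-34134043 (mm9, minus strand): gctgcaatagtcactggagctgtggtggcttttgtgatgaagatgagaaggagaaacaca

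Classical class I promoters carry enhancer A, a site for NF-kappa B. Its core, searched on both strands, was in the windows of 3 of 19 class I genes, H2-K1, H2-D1 and H2-Q7, and in 0.107% of all windows. These 3 windows are shown (GRCm38.p6) because they hold the core, which is in capitals.
H2-K1, core at -125, chr17:34000409-34000482, minus strand: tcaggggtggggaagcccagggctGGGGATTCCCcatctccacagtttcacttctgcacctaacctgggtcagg
H2-D1, core at -171, chr17:35262899-35262972, plus strand: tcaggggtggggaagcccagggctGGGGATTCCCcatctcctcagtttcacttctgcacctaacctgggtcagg
H2-Q7, core at -133, chr17:35438998-35439071, plus strand: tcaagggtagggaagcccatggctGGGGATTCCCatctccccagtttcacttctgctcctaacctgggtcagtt
The H2-K1 and H2-D1 windows of 74 bases differ at 1 base, A42T, counted from the first base shown. The differences of the 3 genes were 0.11, 0.21 and 0.22, and a link to the core was not tested. The Y box core was also present, on the opposite strand, in 11 of the 19 class I windows.

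Among the nonclassical class I genes, which are less variable and mostly of restricted expression, H2-Q4 differed most. H2-Q4 had levels of 4.76 and 4.92 on the MN arrays, against 4.08 and 4.32 on the control arrays. The groups did not overlap, and the difference of 0.64 ± 0.17 (95% interval 0.18 to 1.10) was 0.68 on slide 1 and 0.60 on slide 2. Its unadjusted p was 0.018 and its limma adjusted p was 0.547. The only H2-Q4 probe (chr17:35521294-35521353, mm9, plus strand) contains sequence that recurs in the genome. A stretch of 20 or more of its bases was found in the promoter windows of 34 other genes (0.103% of windows), while 0 such windows were found for each of the other 41 probes that represent members. Bases 31 to 60 of the probe are shown, with the 20 bases found in 24 windows in capitals.
H2-Q4, probe A_55_P1956302: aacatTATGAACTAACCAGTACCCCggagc
As for Ciita, the signal at this probe cannot be assigned to the gene from the array. Without H2-Q4, 5 of 19 class I genes had both MN arrays above both control arrays, and the median was 0.05.

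The other nonclassical genes showed smaller differences. H2-Bl had 1.10 and 1.15 in MN, against 0.73 and 1.07 in control, a difference of 0.23 ± 0.18. Its probe carries this name only in the annotation of slide 1. H2-Q7, of the Qa-2 family, had 4.55 and 4.35 in MN, against 4.33 and 4.13 in control, a difference of 0.22 ± 0.17. H2-M3, which presents formylated peptides of bacteria and mitochondria, had -0.58 and -0.46 in MN, against -0.62 and -0.63 in control, a difference of 0.11 ± 0.14. H2-T23, which encodes Qa-1 and presents signal peptides of other class I chains, had a difference of 0.08 ± 0.17 with overlapping groups. H2-T10 and H2-T9, whose products are ligands of gamma delta T cells, had differences of -0.11 and -0.09. H2-Q5, H2-Q8, H2-M1 and H2-M10.3 had differences of 0.12, 0.10, -0.40 and -0.18. H2-M1 was near background and opposed between slides, with 0.58 on slide 1 and -1.39 on slide 2.

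**Figure D3:**
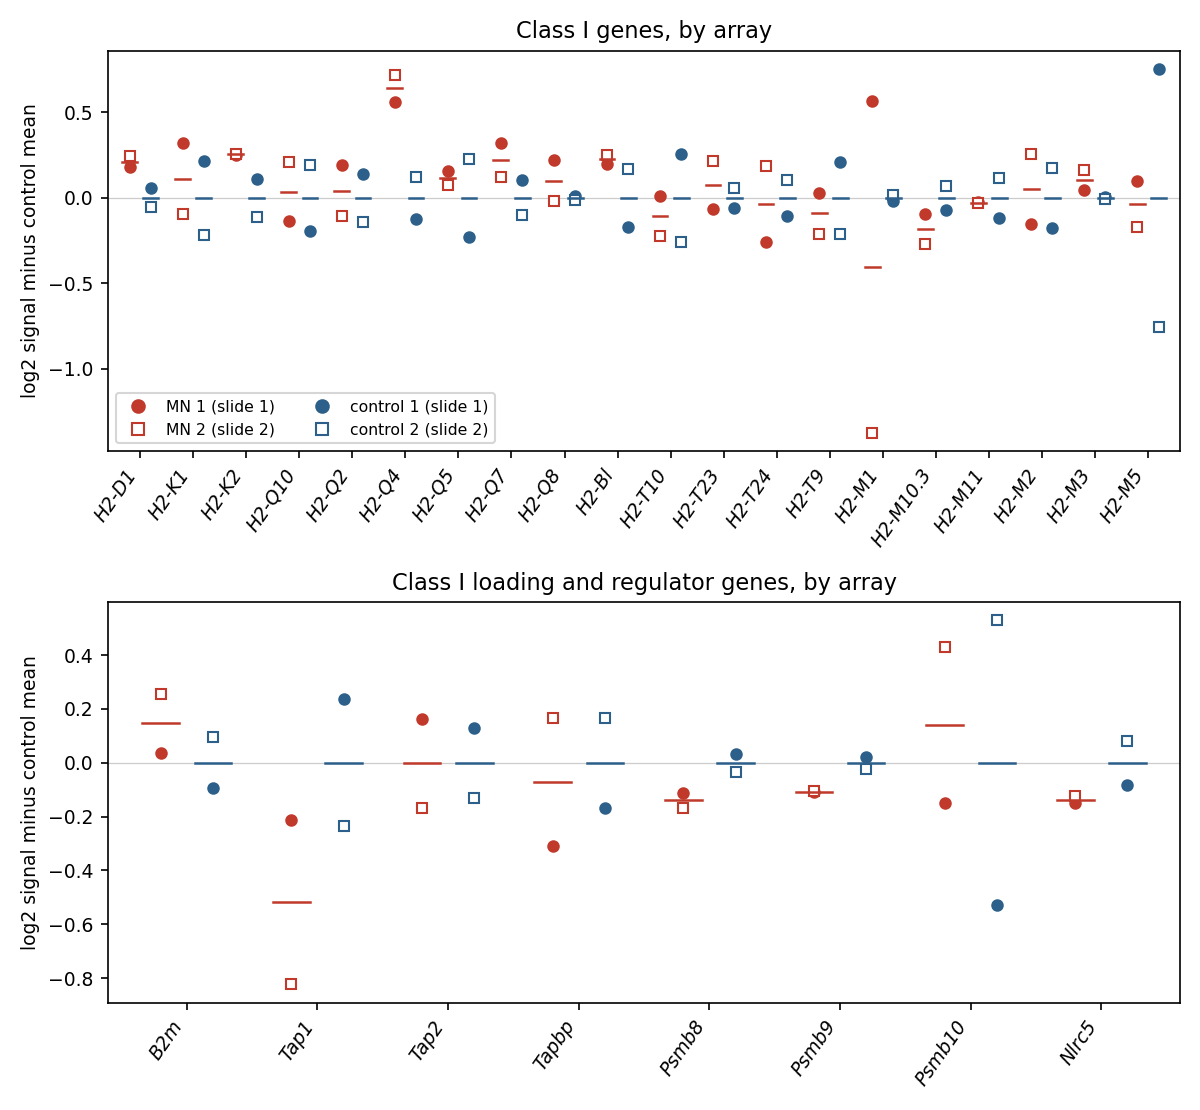
Log2 signal of the 20 measured class I genes (top) and the 8 loading and regulator genes (bottom) on each array, minus the mean of the 2 control arrays; MN arrays stand left of control arrays, filled circles are slide 1, open squares are slide 2, and bars are group means. H2-Q4 is the class I gene with the largest gap between groups, and both MN points lie below both control points in Psmb8, Psmb9 and Nlrc5.

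Genes of class I loading mostly had small negative differences. Of 8 measured, 6 had a negative difference, as did 61.4% of all genes, 0 had both MN arrays above both control arrays, and 3 (37.5%, against 19.9% of all genes) had both below. The median was -0.09, with -0.10 on slide 1 and -0.09 on slide 2, against -0.05 over all genes. With normexp it was -0.045, above the median of -0.067 over all genes, so its place relative to all genes turned with the background correction. Tap1, a subunit of the peptide transporter, had -2.88 and -3.49 in MN, against -2.43 and -2.90 in control. Within slides its differences were -0.45 and -0.59, but the groups overlapped, and the difference was -0.52 ± 0.30 (limma adjusted p = 0.929, and 0.220 with the slide as a block). Its 10 spots per array had an SD of 0.082 to 0.146. Tap2, the other subunit, had 2.79 and 2.46 in MN, against 2.76 and 2.50 in control, a difference of -0.0017 ± 0.20.

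The immunoproteasome subunits Psmb8 and Psmb9, which replace constitutive subunits under interferon, had small differences. Psmb8 had 1.37 and 1.32 in MN, against 1.52 and 1.45 in control, a difference of -0.14 ± 0.13. Psmb9 had 1.45 and 1.45 in MN, against 1.58 and 1.54 in control, a difference of -0.11 ± 0.13. Neither group overlapped the other in these 2 genes. The third subunit, Psmb10, had 2.70 and 3.28 in MN, against 2.32 and 3.38 in control, and its difference of 0.14 ± 0.45 was -0.39 without control array 1. Nlrc5, the class I counterpart of CIITA, had -2.64 and -2.61 in MN, against -2.57 and -2.41 in control, a difference of -0.14 ± 0.14. Tapbp, the tapasin that bridges class I chains to TAP, had a difference of -0.07 ± 0.24. B2m, the light chain shared by class I molecules, had 5.91 and 6.13 in MN, against 5.78 and 5.97 in control, a difference of 0.15 ± 0.17 that was 0.13 on slide 1 and 0.16 on slide 2. The starts of Tap1 and Psmb9 lie so close that their RefSeq promoter windows share 275 bases (chr17:34187306-34187580, GRCm38.p6); their differences of -0.52 and -0.11 had the same sign.

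Set side by side, the medians were 0.22 for class II, 0.06 for class I and -0.09 for loading and regulation, and the 3 values kept this order on both slides. Of the class II genes, 8 of 12 were higher in MN on both slides (66.7%), as were 10 of 20 class I genes (50%) and 1 of 8 loading genes (12.5%), against 23.2% of all genes. Lower on both slides were 2 of 12, 1 of 20 and 5 of 8 (62.5%), against 40.1% of all genes. The counts include H2-Eb2, which passed the filter only through MN, and H2-Ob, which passed only through control. They also include Ciita and H2-Q4, whose probe signals cannot be assigned to the gene. With probes well above background on all 4 arrays, the medians were 0.22 for class II, 0.09 for class I and -0.09 for loading and regulation. These are descriptions of lists whose genes share arrays and, in part, probe sequence, and the difference between the lists was not tested. The 2 genes of the region that encode no MHC chain, the prefoldin subunit gene H2-Ke2 and the steroid dehydrogenase gene H2-Ke6, had differences of -0.08 and -0.03.

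**Figure D4:**
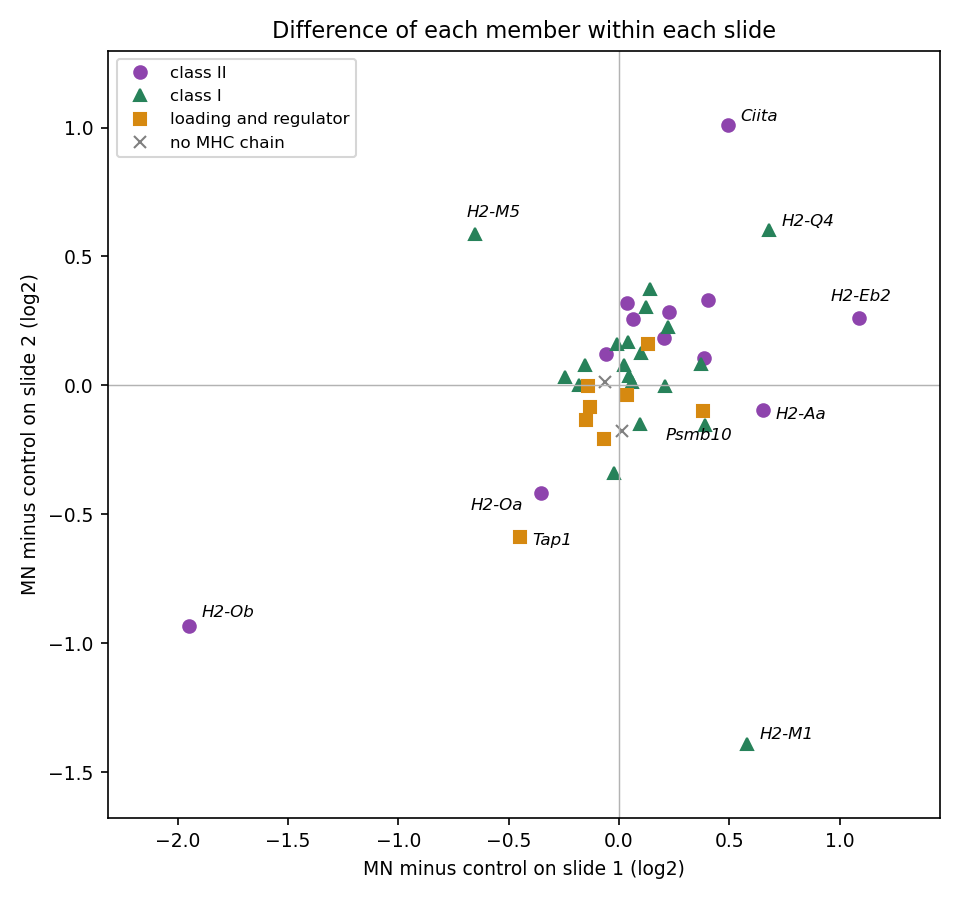
MN minus control (log2) of the 42 measured members on slide 1 (horizontal) and slide 2 (vertical), with symbols by class. Most class II genes fall in the upper right and most loading genes in the lower left, while H2-M1 and H2-M5 lie far out with opposite signs on the slides.

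Genes that serve the same pathway without an H2- name had list medians between -0.16 and 0.08. In 5 lists of such genes, 0 genes passed the adjusted threshold. Of 16 genes of class II processing and control, 11 had a positive difference (38.6% of all genes, median 0.04). In limma 2 of the 16 were higher in MN at an unadjusted p under 0.05, as were 3.54% of all genes. Marchf1, a ubiquitin ligase that removes class II molecules and CD86 from the surface of dendritic and B cells, had 0.84 and 1.84 in MN, against -0.51 and 0.32 in control. Its groups did not overlap, and the difference of 1.44 ± 0.48 (limma adjusted p = 0.669) was 1.35 on slide 1 and 1.52 on slide 2, but a second probe gave 0.26. Creb1, whose product also binds class II promoters, had -2.84 and -2.80 in MN, against -3.27 and -3.35 in control, a difference of 0.49 ± 0.14 (limma adjusted p = 0.574), with 0.01 from its second probe. Nfya and Nfyb, subunits of the Y box factor NF-Y, had 0.17 and -0.16. The lysosomal proteases of antigen breakdown, Ctsb, Ctsd, Ctsh and Lgmn, had differences of 0.01 to 0.04, and Ctsl one of 0.15 ± 0.20.

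Of 12 measured genes of class I processing, 5 had a positive difference (38.6% of all genes, median -0.04). Psme3, which encodes the PA28 gamma cap of the proteasome, had 3.05 and 2.80 in MN, against 4.10 and 3.87 in control. The groups were well apart, with -1.04 on slide 1 and -1.07 on slide 2, and the difference was -1.06 ± 0.18 (unadjusted p = 0.004, limma adjusted p = 0.368). PA28 gamma is a nuclear cap, while the cap of antigen processing is built from the products of Psme1, here at -0.04, and Psme2, which had no probe of that name. Calr, a chaperone of class I heavy chains, had a difference of 0.28 ± 0.17, the translocon gene Sec61a1 one of 0.11 and the cross-presentation gene Wdfy4 one of -0.10. Among 7 MHC-like genes, Ulbp1, Cd1d2, Hfe and Cd1d1 had -0.41, -0.24, 0.21 and 0.10.

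Of 6 costimulatory genes, 4 had a positive difference (38.6% of all genes, median 0.08). Cd80, a ligand of CD28 on antigen-presenting cells, had -1.52 and -1.54 in MN, against -2.20 and -1.88 in control, a difference of 0.51 ± 0.17 (unadjusted p = 0.043, limma adjusted p = 0.678). Icosl had 0.33 ± 0.15, but a second probe gave -1.08. Cd274, the inhibitory ligand PD-L1, had -2.14 and -1.91 in MN, against -1.67 and -1.74 in control, a difference of -0.32 ± 0.16, and Icam1 had -0.19.

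Interferon gamma, the main inducer of class II and of the immunoproteasome, and its signalling genes mostly had negative differences. Of 12 measured, 10 had a negative difference (61.4% of all genes), and both MN arrays were below both control arrays for 7 (58.3%, against 19.9% of all genes); the median was -0.16. Ifng itself was well above background on 0 MN arrays and on both control arrays, so it passed the filter only through the group where it was brighter, and its direction is not independent of that filter. Its measured difference was -0.54 ± 0.27 (limma adjusted p = 0.865). The size of this difference is uncertain, because the MN signals were not well above background. Without Ifng, 6 of 11 genes had both MN arrays below both control arrays (54.5%), and the median was -0.15. Gbp3, an interferon-induced GTPase, had 2.76 and 2.73 in MN, against 3.02 and 3.01 in control, a difference of -0.27 ± 0.13. Irf8, a transcription factor of dendritic cells that interferon gamma also induces, had a difference of -0.19 ± 0.14.

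**Figure D5:**
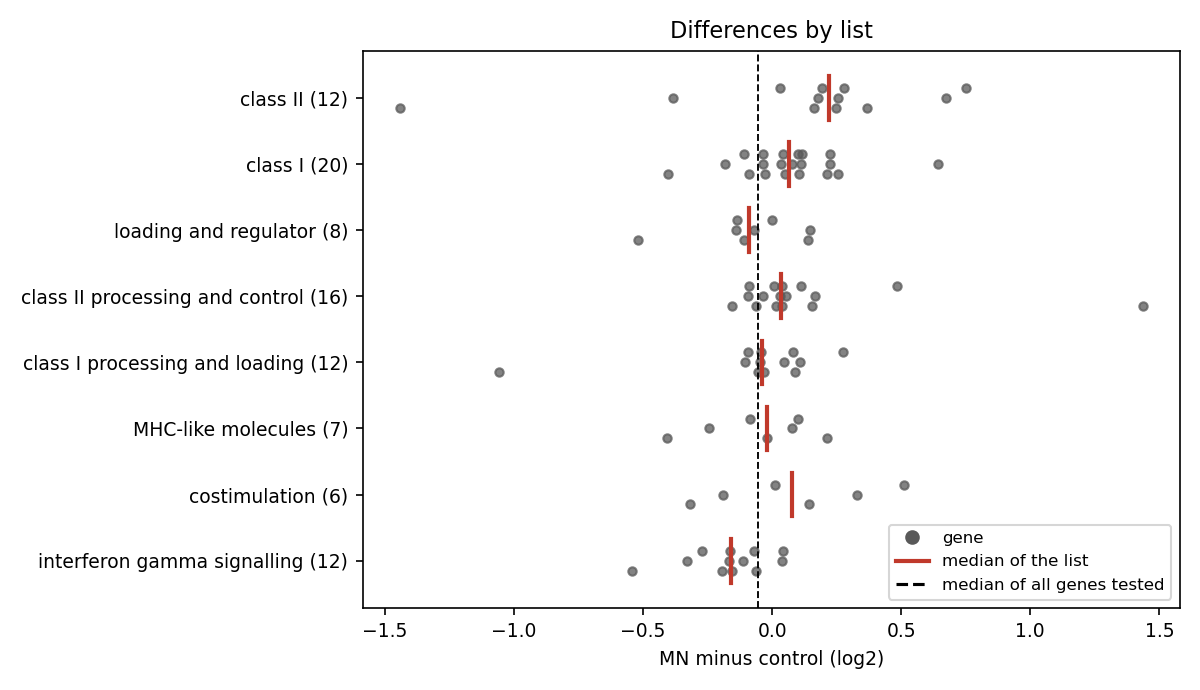
MN minus control (log2) of each measured gene (points) in the 3 classes of members and 5 lists of other pathway genes, with the number of genes in brackets; red bars are list medians and the dashed line is the median of all genes tested. The class II bar lies at 0.22 and the interferon gamma bar at -0.16, on either side of the dashed line at -0.05.

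Markers of the cells that carry class II molecules had differences of both signs. Of 13 measured macrophage and dendritic cell markers, 7 had a positive difference (38.6% of all genes, median 0.10). Both MN arrays lay above both control arrays for 4 (30.8%, against 13.2% of all genes) and below them for 4 (30.8%, against 19.9%). Differences were 1.13 ± 0.45 for Itgam, 0.45 ± 0.14 for Mrc1, -0.84 ± 0.16 for Cd209a and -0.70 ± 0.24 for Zbtb46, with limma adjusted p between 0.419 and 0.772. The probes of 2 of these genes disagreed: the 3 of Itgam ran from -0.21 to 1.13, and the second of Zbtb46 gave -0.04. The log2 of the summed signal of this list was 4.77 and 4.89 in MN, against 4.76 and 4.83 in control. This sum rests mostly on the brightest markers, Csf1r and Itgam, which differed in opposite directions. Csf1r had 4.11 and 4.10 in MN, against 4.32 and 4.33 in control. Itgam had 2.16 and 2.99 in MN, against 0.98 and 1.90 in control. Of 8 B cell markers, 2 had a positive difference (38.6% of all genes, median -0.24). Both MN arrays lay below both control arrays for 3 of the 8 (37.5%, against 19.9%). The B cell sum was 1.74 and 2.00 in MN, against 2.04 and 2.05 in control. All 8 T cell markers had a negative difference (61.4% of all genes, median -0.15). Both MN arrays lay below both control arrays for only 1 of these (12.5%). The T cell sum was 2.17 and 3.01 in MN, against 2.37 and 3.08 in control. These sums weigh bright markers most. The brightest by mean were Cd22, with a difference of 0.23, and Cd4. Cd4 had 0.98 and 2.32 in MN, against 1.21 and 2.34 in control. The 3 pan-leukocyte markers had a median of -0.06. Xcr1, a marker of cross-presenting dendritic cells, was not well above background on any array, and the part of cell numbers in the class II values was not tested.

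The 9 members that did not pass the filter were H2-DMb2, H2-Q1, H2-T3, H2-T18, H2-M9, H2-M10.1, H2-M10.2, H2-M10.4 and H2-M10.6. Of these, H2-Q1 was well above background on 1 MN array and 1 control array, and the other 8 on 0 MN arrays, so no difference is given for them.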

How the data were processed

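Kidney RNA (0.2 µg) was labelled with Cy3 and 0.6 µg of labelled RNA was hybridized to Agilent 1-colour arrays, per the labels' protocols. The deposited scanner files hold spot intensity. The software was Agilent Feature Extraction 10.5.1.1, which removed background and, per the file headers, put surrogate values in place of undetected spots (17.7% and 20.0% of spots on MN arrays, 16.0% and 6.91% on control arrays). The deposited value table holds log2 values, made in a way not given in the sources used here. They matched the 75th-percentile scaling with replicate columns 1 and 2 exchanged in both groups, and were used only as an alternative.

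For each array, the 75th percentile of log2 processed signal was subtracted (62976 spots, 59305 non-control). Non-uniform spots were left out, spots of a probe averaged, and a gene represented by its tested probe with the highest mean over the 4 arrays. The 2 slides carried different annotation versions, and 3 member probes had another name in the other version. The name of slide 2 was used, except for the H2-Bl probe, which is named LOC102641349 on slide 2. The test was limma 3.58.1 under R 4.3.3 (lmFit, eBayes, two-sided, Benjamini-Hochberg over all genes, threshold 0.05; residual df 2, prior df 1.99). Slide, scan and replicate number coincide. The slide as a block was an alternative. The fit was also run on simulated data with the same spread for every gene and with changes larger than most differences given here. That run does not bear on the results above. Probe sequences were searched for shared stretches of 20 bases. Tables and figures used Python 3.11.15, pandas 2.3.3 and matplotlib 3.10.9.

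The members and lists were chosen with earlier results of these data known. Genes named were all measured class II, loading and other H2- genes without a chain, H2-K1 and H2-D1. Added were the 8 class I genes with the largest difference among those well above background everywhere, and the 4 others with the smallest p. Each pathway list gave up to 4 genes by size of difference. H2-M5, Psme1, Ctsb, Ctsd, Ctsh, Ctsl, Lgmn, Tenm1, Cbln2, Itgam, Mrc1, Cd209a, Zbtb46, Cd22 and Cd4 were named after their values were seen. A few items within these lists are not reported here.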

Additional observations from a re-analysis of the deposited data

How the results depend on the processing

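No member passed the adjusted threshold under any alternative run, including normexp, quantile or median scaling, the deposited table, other filters, other probe rules, an intensity trend, an adjusted p under 0.1, the replicate block and each array left out; limma's count of members at an unadjusted p under 0.05 was 1, but 2 with probes well above background on all 4 arrays, with the mean of the probes, with each probe on its own and with an intensity trend, 6 with the block, and 1 to 4 with 1 array left out. Over all genes the count past the threshold was 5, and 15 with normexp, 20 with quantile normalization, 11 with median scaling, 16 with an intensity trend, 22 at an adjusted p under 0.1, and 0 with no filter, with probes well above background on all 4 arrays, with the slide as a replicate block and with any 1 array left out (0 to 0). The class II median was 0.18 to 0.22 and the class I median 0.09 to 0.13 with 1 array left out. The loading median was -0.045 with normexp and -0.16 to -0.092 with 1 array left out. The median over all genes ran from -0.10 to -0.01 under these settings. The counts of class II genes with all MN arrays above, and of loading genes with all MN arrays below, all control arrays were recomputed under settings chosen after seeing the data: 5 of 12 class II genes with normexp, 6 with quantile normalization, 7 with median scaling and the deposited table, 7 to 9 with 1 array left out; 3 loading genes under each scaling, and 4 to 5 with 1 array left out (5 without MN array 1 or control array 1). Fewer arrays make separation easier by construction: it held for 24.1% to 33% of all genes (above) and 36% to 46.6% (below) with 1 array left out.

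Of 724 pairs of a named gene and an alternative, 691 kept their sign, 33 reversed and 0 passed the threshold; 35 of 56 genes never reversed. Tap2 was 0.0093 with quantile normalization and 0.013 with median scaling, H2-Ke6 was 0.018 with quantile normalization, and Icosl was -0.38 with the mean of its probes, which disagree. With 1 array left out, reversals spanned -0.22 to 0.78 (H2-Aa), -0.012 to 1.36 (H2-Eb2), -0.20 to 0.26 (H2-Ea-ps), -0.17 to 0.16 (Tap2), -0.31 to 0.17 (Tapbp), -0.39 to 0.67 (Psmb10), -0.11 to 0.33 (H2-K1), -0.11 to 0.35 (H2-Q5), -0.015 to 0.22 (H2-Q8), -0.36 to 0.15 (H2-T10), -0.30 to 0.12 (H2-T9), -0.064 to 0.22 (H2-T23), -1.37 to 0.57 (H2-M1), -0.34 to 0.17 (H2-Ke2), -0.070 to 0.020 (H2-Ke6), -0.056 to 0.39 (Nfya), -0.32 to 0.012 (Nfyb), -0.093 to 0.31 (Sec61a1), -0.22 to 0.0097 (Wdfy4) and -0.86 to 0.050 (Ulbp1). The cause was not tested, beyond the smaller number of arrays. The 2 replicate numbers mark the slide; deviations of arrays sharing a number from their group's mean correlated at 0.63 across genes, and in the fit with this replicate block 0 genes passed the adjusted threshold. Of 36 named genes that kept their sign with 1 array left out, 22 moved by over 1.5 times, among them Ciita (0.38 to 1.12), H2-Ob (-2.42 to -0.46), Cd74 (0.04 to 0.32), B2m (0.04 to 0.26), Tap1 (-0.82 to -0.21), H2-Bl (0.05 to 0.40) and Marchf1 (0.94 to 1.93).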
